A study of Rattus norvegicus with 16 samples.

Results

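The genes described here make fatty acids, triacylglycerols and cholesterol. Of 37 genes listed for these pathways, 33 were measured in the rat knee, among 18166 gene symbols on the array. They fall into 2 branches, fatty acid and triacylglycerol synthesis (17 of 19 genes measured) and the sterol pathway (16 of 18 genes measured). A gene was measured when the array's annotation gave at least 1 probe set to its symbol alone, and the probe set with the highest mean over all 16 arrays was taken. Fasn, Mlxipl, Hmgcs1 and Mvk had no such probe set, and their levels were not analysed here. This rule for probe sets uses annotation and overall mean level, and does not use differences between groups. The genes themselves, and the marker lists used below, were chosen with earlier results of these data known.

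Fatty acids are built in the cytosol from acetyl-CoA, which ATP-citrate lyase releases from citrate, and are then elongated, desaturated, activated with coenzyme A and joined to glycerol to give triacylglycerol, the storage fat of adipocytes. Cholesterol starts from the same acetyl-CoA but runs through mevalonate, farnesyl diphosphate, squalene and lanosterol. Both branches answer to sterol regulatory element-binding proteins (SREBPs), membrane-bound transcription factors that SCAP escorts to the Golgi for cleavage and that INSIG proteins hold back in the endoplasmic reticulum when sterols are plentiful. SREBP-1, from Srebf1, is known mainly for its action on fatty acid genes and SREBP-2, from Srebf2, for its action on sterol genes.

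The data came from the right knee of male Wistar rats that were either intact or had received a single intra-articular injection of monosodium iodoacetate (MIA, 3 mg), an inhibitor of glycolysis that kills chondrocytes and is used to produce osteoarthritis-like joint damage. Tissue was collected from intact rats and at 2, 14 and 28 days after MIA, with 4 Affymetrix Rat Gene 2.0 ST arrays per group. The submitters' labels describe individual rats, whereas the study's methods state that RNA of 2 animals was pooled for each array, which gives 8 rats per group. The sampled tissue was meniscus and the articular cartilage of tibia and femur, together with some joint capsule and bone. The only controls were intact rats, without a saline injection, so the injection itself and elapsed time cannot be told apart from MIA.

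Levels are given as log2 signal, the normalised log2 mRNA abundance of the probe set, and a difference of 1 is a change of 2-fold. Levels of different genes cannot be compared with each other on this scale. A gene was called higher or lower when its difference between groups had an adjusted p under 0.05 in limma, a linear model fitted to each probe set with a shared estimate of the variance, with Benjamini-Hochberg adjustment over all 36685 probe sets. Errors of differences are standard errors (SE), and every group has n = 4 arrays. The 3 comparisons with intact share the same 4 intact arrays.

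Markers of several cell types differed between the arrays. The mean of 18 adipocyte markers lay between 9.49 and 10.33 on the intact arrays, between 8.77 and 9.15 at day 2, between 8.28 and 8.74 at day 14 and between 7.26 and 7.57 at day 28, without overlap between groups. The mean of 18 skeletal muscle markers ran from 6.42 to 11.12 over the 16 arrays, was highest on intact array 3 (9.79) and day 14 array 3 (11.12) of their groups, and none of the 18 was called in any comparison with intact by limma (at an unadjusted p under 0.05, 1 was higher at day 14). From day 2 to day 14, 3 of the 18 were called higher, with a median difference of 2.09, beside 9.62% of all gene symbols. At an unadjusted p under 0.05, 12 were higher in that comparison. From day 14 to day 28 none was called, and 10 were lower at an unadjusted p under 0.05. Neutrophil, erythroid and marrow progenitor markers (19 genes) averaged 9.23 to 9.40 on the intact arrays and 6.65 to 8.96 at day 28, where 14 were called lower. Of 15 chondrocyte markers, whose mean was 9.00 to 9.58 on the intact arrays, 10 were called lower at day 2, 7 at day 14 and 3 at day 28. At day 2, 14 of 18 macrophage and monocyte markers and 23 of 23 DNA replication and mitosis genes were called higher. Among all gene symbols, 19.8% were called higher at day 2, and 15.2%, 8.74% and 9.57% lower at days 2, 14 and 28. In tissue of mixed cells, fewer cells of a type and less RNA per cell cannot be told apart.

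The branches moved in opposite directions. In the fatty acid and triacylglycerol branch, 9 of 17 genes were called lower at day 2, 7 at day 14 and 8 at day 28, and the number lower by over 2-fold went from 3 to 6 to 7. Over all 18166 gene symbols, 15.2% were called lower at day 2, 8.74% at day 14 and 9.57% at day 28. Of these symbols, 379, 275 and 411 were called lower by over 2-fold at days 2, 14 and 28. The branch had median differences of -0.41, -0.20 and -0.39 on the same days, while the medians over all gene symbols were -0.05, -0.03 and 0.01. No gene of the branch was called higher on any of these days by limma, none was higher at an unadjusted p under 0.05, and none was called higher by the unequal-variance test.

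In the sterol branch, 7 of 16 genes were called higher at day 2, 7 at day 14 and 8 at day 28, while 2, 1 and 1 were called lower. Higher calls made up 19.8% of all gene symbols at day 2, 12.2% at day 14 and 11.0% at day 28. Its median differences on the 3 days were 0.17, 0.27 and 0.28. Only 1 sterol gene, Cyp51 at day 2, was over 2-fold higher, against the 7 fatty acid genes over 2-fold lower at day 28. Of all 18166 gene symbols, 385 were called over 2-fold higher at day 2 and 411 over 2-fold lower at day 28. When all 3 days were tested against intact at once (moderated F-test), 10 of the 17 fatty acid genes and 12 of the 16 sterol genes passed, and 42.8% of all gene symbols.

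**Figure D1:**
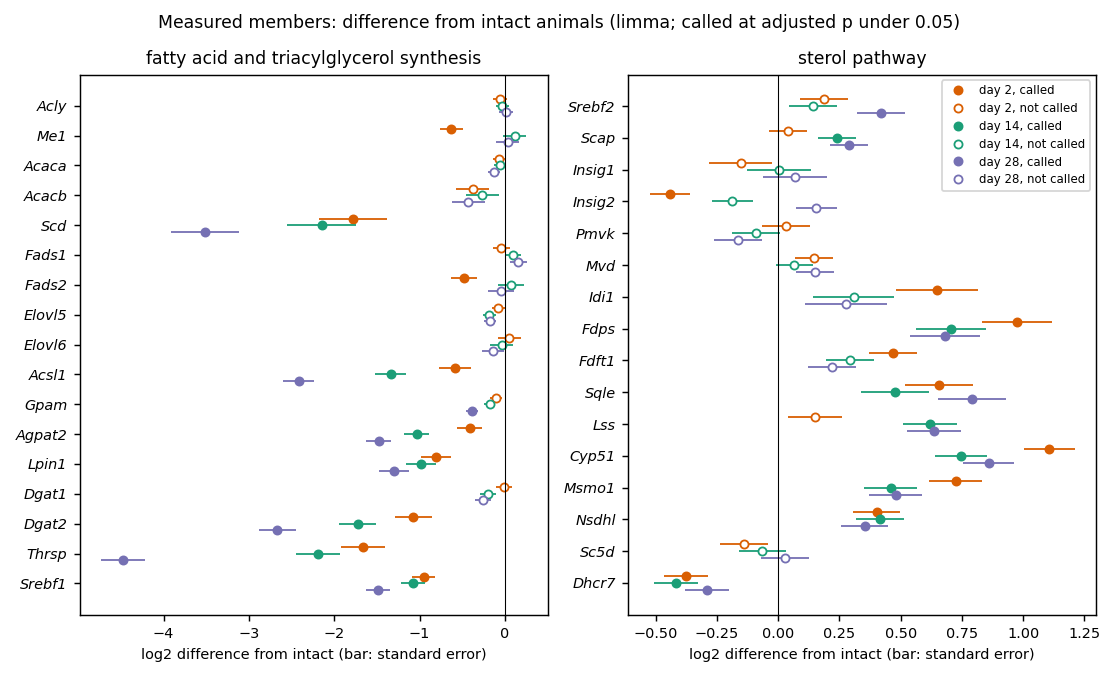
Log2 difference from intact of each of the 33 genes at days 2, 14 and 28 after MIA (horizontal axis, points with SE, n = 4 arrays per group), with filled points for differences called by limma and open points for the others. The vertical axis lists the genes by branch, and the 2 panels have different horizontal scales. The fatty acid and triacylglycerol genes extend to -4.47 (Thrsp at day 28), and the sterol genes lie between -0.44 and 1.11.

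The plot of differences by gene shows that the fall of the fatty acid branch was carried by 7 genes, Thrsp, Scd, Dgat2, Acsl1, Srebf1, Agpat2 and Lpin1, which were called lower on all 3 days. The mean of each of the 7 was lower at each successive day. In the sterol branch Cyp51, Fdps, Sqle, Msmo1 and Nsdhl were called higher on all 3 days. Dhcr7 was called lower on all 3 days, and Insig1, Pmvk, Mvd and Sc5d were called on none. The share of all gene symbols called on all 3 days was not counted. Because the 3 comparisons share the intact arrays, a call on all 3 days is not 3 independent results.

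Among the regulators of lipogenesis, Thrsp had the largest fall of all 33 genes at days 14 and 28, while Scd fell slightly more at day 2. Thrsp encodes a small protein that responds to thyroid hormone and carbohydrate and is abundant in lipogenic tissue. It read 10.66, 11.17, 10.83 and 11.52 on the intact arrays and 10.06, 9.48, 8.79 and 9.18 at day 2, then 9.37, 8.69, 8.76 and 8.61 at day 14 and 6.31, 6.60, 6.96 and 6.44 at day 28. Every MIA array lay below every intact array, and every day 28 array lay below every day 14 array, while days 2 and 14 overlapped. The difference from intact was -1.67 ± 0.258 at day 2 (3.18-fold lower, adjusted p = 0.000193), -2.19 ± 0.258 at day 14 (adjusted p = 7.4e-05) and -4.47 ± 0.258 at day 28 (22.2-fold lower, adjusted p = 9.58e-08). The step from day 14 to day 28 was -2.28 (adjusted p = 0.00121), in a comparison where 0.429% of all gene symbols were called lower and 0.341% higher.

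Srebf1 itself followed the same order. Srebf1 read 8.61, 9.18, 8.84 and 9.31 on the intact arrays and 8.21, 8.04, 7.80 and 8.10 at day 2, and 8.09, 7.80, 7.97 and 7.78 at day 14 and 7.42, 7.60, 7.43 and 7.56 at day 28. No MIA array reached the lowest intact array. Srebf1 was lower by 1.93-fold at day 2 (-0.95 ± 0.137, adjusted p = 0.000109), by 2.11-fold at day 14 (-1.08 ± 0.137, adjusted p = 0.000134) and by 2.80-fold at day 28 (-1.49 ± 0.137, adjusted p = 6.43e-06). The steps between consecutive days were -0.13 and -0.41 and were not called (adjusted p = 0.666 and 0.259).

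The genes that supply the branch with acetyl-CoA and NADPH were not called lower after day 2. Acly, the ATP-citrate lyase that yields cytosolic acetyl-CoA, had a mean of 9.63 ± 0.0167 (SD) on the intact arrays, 9.57 ± 0.0771 at day 2, 9.60 ± 0.109 at day 14 and 9.64 ± 0.137 at day 28. Its differences from intact ran from -0.05 to 0.01, with a 95% confidence interval of -0.16 to 0.18 at day 28, and none was called (adjusted p of 0.663, 0.849 and 0.958). Me1, the malic enzyme that makes NADPH, read 8.67, 8.86, 8.92 and 8.95 on the intact arrays and 8.06, 8.16, 8.42 and 8.23 at day 2, and 8.83, 8.78, 9.45 and 8.81 at day 14 and 9.00, 8.84, 8.77 and 8.92 at day 28. The day 2 arrays lay below all others, and the day 14 and day 28 arrays overlapped with intact. Me1 was 1.55-fold lower at day 2 (-0.63 ± 0.135, adjusted p = 0.00265) and higher at day 14 than at day 2 (0.75 ± 0.135, adjusted p = 0.00123), with a difference from intact of 0.03 at day 28 (adjusted p = 0.933). In the comparison of day 14 with day 2, 9.62% of all gene symbols were called higher and 11.7% lower. The highest Me1 value, 9.45 on day 14 array 3, was on the array with the highest muscle marker mean.

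The acetyl-CoA carboxylases, which commit acetyl-CoA to fatty acids as malonyl-CoA, were not called on any day. Acaca, the cytosolic isoform of lipogenic tissue, ranged from 8.28 to 8.55 on the intact arrays and from 8.24 to 8.32 at day 28, a difference of -0.13 ± 0.0703 (95% confidence interval -0.28 to 0.02, adjusted p = 0.269). Acacb, the isoform of heart and skeletal muscle known for holding back fatty acid oxidation, read 6.45, 6.79, 7.11 and 6.72 on the intact arrays and 6.42, 6.31, 6.20 and 6.63 at day 2, and 6.32, 6.30, 7.22 and 6.17 at day 14 and 6.37, 6.34, 6.37 and 6.27 at day 28. Day 14 array 3, the array highest in muscle markers, had the highest Acacb value of all, and the day 28 arrays lay below the intact arrays. Without this array Acacb was called lower on all 3 days (adjusted p = 0.0363 at day 2, 0.0238 at day 14 and 0.0298 at day 28), whereas over all 16 arrays its differences were -0.38, -0.27 and -0.43 (adjusted p = 0.172, 0.406 and 0.172).

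Of the 5 desaturases and elongases, Scd alone was called lower on every day. Scd, the stearoyl-CoA desaturase that turns saturated into monounsaturated fatty acids, read 11.03, 11.35, 10.47 and 11.46 on the intact arrays and 10.00, 9.50, 8.75 and 8.96 at day 2, and 9.97, 9.28, 8.68 and 7.80 at day 14 and 7.76, 7.72, 7.86 and 6.92 at day 28. All MIA arrays lay below all intact arrays, but the spread at day 14 was wide and days 2, 14 and 28 overlapped with their neighbours. Scd was lower by 3.43-fold at day 2 (-1.78 ± 0.399, adjusted p = 0.00371), by 4.44-fold at day 14 (-2.15 ± 0.399, adjusted p = 0.00206) and by 11.4-fold at day 28 (-3.51 ± 0.399, adjusted p = 3.89e-05). The step from day 14 to day 28 was -1.37 and was not called (adjusted p = 0.182).

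The desaturases of polyunsaturated fatty acids behaved otherwise. Fads2, which acts on the essential fatty acids first, had means of 9.72 on the intact arrays, 9.24 at day 2, 9.79 at day 14 and 9.67 at day 28. It was called lower at day 2 (-0.48 ± 0.153, adjusted p = 0.0295) although its day 2 values (8.85 to 9.74) overlapped with intact (9.53 to 9.87), and it was higher at day 14 than at day 2 (0.56 ± 0.153, adjusted p = 0.0217). The day 2 call was lost when intact array 1, 2 or 4 or day 2 array 3 or 4 was left out (adjusted p from 0.055 to 0.0948). Fads1, the next desaturase of that route, differed from intact by -0.04, 0.10 and 0.16, and none was called (adjusted p of 0.784, 0.566 and 0.355). The elongases were also not called, with differences at day 28 of -0.17 for Elovl5 (adjusted p = 0.151), which acts on polyunsaturated fatty acids, and -0.14 for Elovl6 (adjusted p = 0.594), which extends palmitate.

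The genes of fatty acid activation and triacylglycerol assembly formed the largest falling group, with 4 of 6 called lower at day 2, 4 at day 14 and 5 at day 28. Lower calls made up 15.2%, 8.74% and 9.57% of all gene symbols on these days. Acsl1 encodes the main long-chain acyl-CoA synthetase of adipocytes and liver. Acsl1 read 9.84, 10.33, 10.25 and 10.51 on the intact arrays and 9.79, 9.57, 9.45 and 9.79 at day 2, and 9.14, 9.03, 9.07 and 8.34 at day 14 and 7.59, 8.03, 8.02 and 7.64 at day 28. The 4 groups followed each other downwards without overlap. The difference from intact was -0.58 ± 0.184 at day 2 (adjusted p = 0.0288), -1.34 ± 0.184 at day 14 (adjusted p = 0.000234) and -2.42 ± 0.184 at day 28 (5.34-fold lower, adjusted p = 1.07e-06). Both steps between days were called as well, -0.76 from day 2 to day 14 (adjusted p = 0.0106) and -1.08 from day 14 to day 28 (adjusted p = 0.0165). Acsl1 and Thrsp were the only genes of the branch called between days 14 and 28. The day 2 call of Acsl1 was lost when intact array 2, 3 or 4 or day 2 array 2 or 3 was left out (adjusted p from 0.0541 to 0.0901).

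Dgat2 and Dgat1 catalyse the same final step, the addition of the last fatty acid to diacylglycerol, but over all 16 arrays only Dgat2 was called. Dgat2 read 9.95, 10.77, 10.48 and 10.93 on the intact arrays and 9.66, 9.42, 9.20 and 9.55 at day 2, and 9.12, 9.08, 8.58 and 8.44 at day 14 and 7.73, 8.24, 7.98 and 7.51 at day 28. Each group lay below the group before it without overlap. Dgat2 was lower by 2.10-fold at day 2 (-1.07 ± 0.218, adjusted p = 0.00175), 3.31-fold at day 14 (-1.73 ± 0.218, adjusted p = 0.000121) and 6.35-fold at day 28 (-2.67 ± 0.218, adjusted p = 1.99e-06). Its steps between days, -0.65 and -0.94, were not called (adjusted p = 0.0591 and 0.0795). Dgat1 differed from intact by -0.01 ± 0.0918, -0.20 ± 0.0918 and -0.26 ± 0.0918 (adjusted p = 0.928, 0.165 and 0.0758), and without intact array 1 it was called lower at day 14 (adjusted p = 0.0269) and day 28 (adjusted p = 0.00951).

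Between activation and this last step stand Gpam, Agpat2 and Lpin1. Agpat2, the acyltransferase that makes phosphatidic acid and is lost in a congenital lipodystrophy of humans, read 9.17, 9.67, 9.49 and 9.89 on the intact arrays and 9.36, 9.20, 8.82 and 9.20 at day 2, and 8.78, 8.49, 8.36 and 8.46 at day 14 and 8.11, 8.06, 7.99 and 8.16 at day 28. The day 2 arrays overlapped with intact, and the later groups followed each other downwards without overlap. Agpat2 was barely past the threshold at day 2 (-0.41 ± 0.146, adjusted p = 0.0499) and lower by 2.05-fold at day 14 (-1.04 ± 0.146, adjusted p = 0.000283) and 2.78-fold at day 28 (-1.48 ± 0.146, adjusted p = 1.2e-05). The step from day 2 to day 14 was -0.62 (adjusted p = 0.00819). Its day 2 call was lost in 13 of the 16 fits that left out 1 array (adjusted p from 0.0519 to 0.159).

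Lpin1, a phosphatidate phosphatase that also acts as a nuclear coregulator, read 8.65, 8.98, 8.89 and 9.19 on the intact arrays and 8.09, 8.05, 7.99 and 8.33 at day 2, and 7.87, 7.96, 8.51 and 7.44 at day 14 and 7.58, 7.62, 7.56 and 7.76 at day 28. All MIA arrays lay below the intact arrays, with day 14 overlapping the other days. It was lower by 1.76-fold at day 2 (-0.81 ± 0.174, adjusted p = 0.00269), 1.98-fold at day 14 (-0.98 ± 0.174, adjusted p = 0.0015) and 2.45-fold at day 28 (-1.30 ± 0.174, adjusted p = 0.000162). Gpam, the mitochondrial acyltransferase of the first step on glycerol phosphate, was called only at day 28 (-0.39 ± 0.0680, 1.31-fold lower, adjusted p = 0.00126), where its values of 8.40 to 8.53 lay below the intact range of 8.76 to 8.91.

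**Figure D2:**
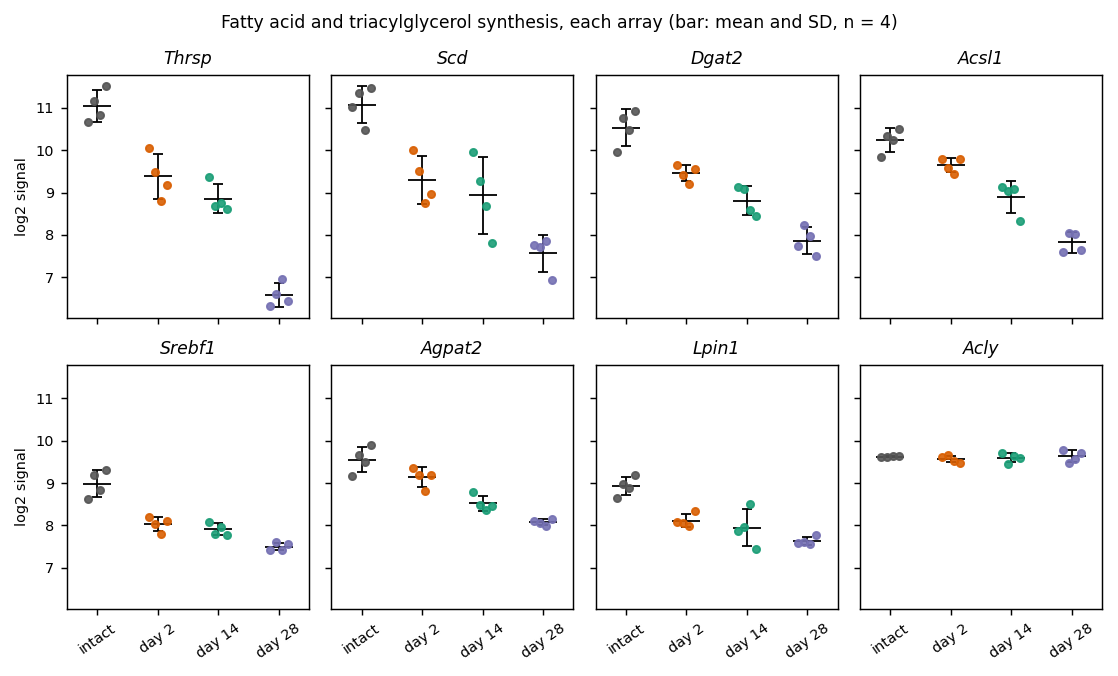
Log2 signal (vertical axis) of 8 genes of the fatty acid and triacylglycerol branch on each array (points), with mean and SD (bars, n = 4), for intact and days 2, 14 and 28 after MIA (horizontal axis). The panels share 1 axis that does not start at 0, and the first 7 genes step down from intact to day 28 while Acly stays between 9.46 and 9.78.

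The plot of the fatty acid genes by array sets the 7 falling genes beside Acly. Of the 17 genes, 12 had their highest mean in intact and 12 their lowest mean at day 28, and 9 had means that went down at each successive day. These counts take means whether or not a difference was called, and were not made over all gene symbols. Acsl1, Dgat2 and Thrsp are also among the genes that the study selected for their change on these same arrays, so their direction here is not independent of that choice.

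The promoters of the 3 fatty acid genes with the largest differences and a promoter in RefSeq are shown because these genes moved together. The sequences are from RefSeq build GRCr8, run from 250 bases before to 50 bases after the gene start, and are written 5′ to 3′ on the gene's strand. They lie at chr1:161138915-161139214 (minus strand) for Thrsp, chr1:253231682-253231981 (minus strand) for Scd and chr16:52532343-52532642 (minus strand) for Acsl1. Capitals mark a CCAAT box, which reads ATTGG where it lies on the opposite strand.
Thrsp: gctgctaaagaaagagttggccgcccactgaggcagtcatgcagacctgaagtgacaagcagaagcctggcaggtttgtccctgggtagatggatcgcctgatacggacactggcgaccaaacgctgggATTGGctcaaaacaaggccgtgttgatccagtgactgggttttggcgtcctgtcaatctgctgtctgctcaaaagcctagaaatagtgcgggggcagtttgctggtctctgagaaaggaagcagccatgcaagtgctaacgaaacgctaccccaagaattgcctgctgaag
Scd: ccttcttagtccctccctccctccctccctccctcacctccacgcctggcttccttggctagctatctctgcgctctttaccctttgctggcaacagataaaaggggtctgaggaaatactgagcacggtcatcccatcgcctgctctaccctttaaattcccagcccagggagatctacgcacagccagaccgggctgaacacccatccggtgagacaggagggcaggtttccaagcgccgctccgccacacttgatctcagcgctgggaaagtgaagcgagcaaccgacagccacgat
Acsl1: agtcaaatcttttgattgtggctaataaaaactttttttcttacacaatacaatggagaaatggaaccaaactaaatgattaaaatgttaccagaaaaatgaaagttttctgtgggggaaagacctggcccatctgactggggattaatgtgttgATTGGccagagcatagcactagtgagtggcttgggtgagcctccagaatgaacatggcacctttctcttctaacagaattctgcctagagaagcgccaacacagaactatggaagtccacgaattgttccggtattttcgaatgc

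Thrsp and Acsl1 each held 1 CCAAT box and Scd none in these windows. Motif counts cover every listed gene with a promoter, so Mlxipl, whose level was not measured, is among them. On either strand, CCAAT occurred in 10 of the 14 fatty acid genes with a promoter and in 37.5% of all 33469 promoters. The core of the sterol regulatory element, written TCACNCCAC, occurred in no promoter of the 14 and in 1.12% of all promoters, and the E-box CACGTG in 1 of the 14 (Elovl5) and in 6.42% of all. These are counts of letters in short windows, and none of the 3 motifs contains another. Because TCACNCCAC is rare in all promoters, its absence from the 14 does not show that they lack sterol regulatory elements.

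Srebf2, the gene of SREBP-2, and the regulators of SREBP cleavage Scap, Insig1 and Insig2 differed from intact by -0.44 to 0.42. Insig2, which retains the SCAP and SREBP complex in the endoplasmic reticulum, read 8.92, 9.11, 9.06 and 9.03 on the intact arrays and 8.56, 8.45, 8.75 and 8.58 at day 2, and 8.77, 9.02, 8.80 and 8.77 at day 14 and 9.21, 9.21, 9.22 and 9.10 at day 28. Only the day 2 arrays lay wholly below intact. Insig2 was 1.36-fold lower at day 2 (-0.44 ± 0.0825, adjusted p = 0.000922) and was not called at day 14 (-0.19, adjusted p = 0.152) or day 28 (0.16, adjusted p = 0.265). Insig1, the retention factor that is itself a sterol-responsive gene, had means of 9.06 ± 0.165 (SD) on the intact arrays and 8.90 ± 0.135, 9.06 ± 0.265 and 9.12 ± 0.159 on days 2, 14 and 28, and its differences from intact had adjusted p of 0.421, 0.989 and 0.823.

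Srebf2 read 9.47, 9.51, 9.58 and 9.12 on the intact arrays and 9.53, 9.59, 9.60 and 9.71 at day 2, and 9.71, 9.52, 9.42 and 9.60 at day 14 and 9.83, 9.73, 9.87 and 9.93 at day 28. Only the day 28 arrays lay wholly above intact, and Srebf2 was called higher at that day alone (0.42 ± 0.0990, 1.34-fold, adjusted p = 0.00987). The Srebf2 call was lost under the unequal-variance test and with the marrow or adipocyte marker covariate described below. Srebf1 at the same day was 2.80-fold lower. Scap, the escort of both SREBPs, was called higher at day 14 (0.24 ± 0.0770, adjusted p = 0.0484) and day 28 (0.29 ± 0.0770, adjusted p = 0.0195). The day 14 call of Scap was lost in 12 of 16 fits that left out 1 array (adjusted p from 0.0549 to 0.115), and the day 28 call without intact array 1 or 3 or day 28 array 3 (adjusted p from 0.0513 to 0.0589).

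In the mevalonate part of the sterol pathway, Fdps was the gene that stayed high. Fdps makes farnesyl diphosphate, from which both sterols and protein prenyl groups derive. Fdps read 8.55, 8.80, 8.99 and 8.30 on the intact arrays and 9.51, 9.52, 9.80 and 9.70 at day 2, and 9.30, 9.12, 9.40 and 9.65 at day 14 and 9.40, 9.20, 9.27 and 9.49 at day 28. All MIA arrays lay above all intact arrays. Fdps was higher by 1.96-fold at day 2 (0.97 ± 0.142, adjusted p = 0.00012), 1.63-fold at day 14 (0.71 ± 0.142, adjusted p = 0.00358) and 1.60-fold at day 28 (0.68 ± 0.142, adjusted p = 0.00445). Idi1, the isomerase just before it, was called only at day 2 (0.65 ± 0.167, adjusted p = 0.00946), where its values (7.70 to 8.09) still overlapped with intact (6.85 to 7.73). Pmvk and Mvd, the kinase and decarboxylase of mevalonate phosphates, were called on no day, with differences of -0.16 and 0.15 at day 28 (adjusted p = 0.345 and 0.24).

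From squalene onwards, 5 of 8 genes were called higher on each day, with Fdft1 among them at day 2 and Lss in its place at days 14 and 28. Higher calls made up 19.8%, 12.2% and 11% of all gene symbols at days 2, 14 and 28. Fdft1, the squalene synthase, was called higher at day 2 (0.47 ± 0.0974, adjusted p = 0.00214) and missed the threshold at day 14 (0.29 ± 0.0974, adjusted p = 0.0551) and day 28 (0.22 ± 0.0974, adjusted p = 0.168). Sqle, the oxygenase that follows and a rate-limiting enzyme of the pathway, read 7.15, 7.25, 7.24 and 6.62 on the intact arrays and 7.54, 7.70, 7.90 and 7.75 at day 2, and 7.48, 7.40, 7.54 and 7.75 at day 14 and 8.06, 7.65, 7.79 and 7.92 at day 28. Every MIA array lay above every intact array, of which array 4 was the lowest. Sqle was higher by 1.58-fold at day 2 (0.66 ± 0.139, adjusted p = 0.00233), 1.39-fold at day 14 (0.48 ± 0.139, adjusted p = 0.0306) and 1.73-fold at day 28 (0.79 ± 0.139, adjusted p = 0.0013). The day 14 call of Sqle was lost without intact array 4 or day 14 array 1, 3 or 4 (adjusted p from 0.052 to 0.0999).

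Lss, the cyclase that closes the sterol ring to give lanosterol, came later. Lss read 8.03, 8.42, 8.10 and 8.10 on the intact arrays and 8.15, 8.30, 8.51 and 8.30 at day 2, and 8.83, 8.66, 8.84 and 8.81 at day 14 and 9.06, 8.62, 8.76 and 8.77 at day 28. Day 2 overlapped with intact, and days 14 and 28 lay above both. Its difference from intact was 0.15 ± 0.110 at day 2 (adjusted p = 0.352), 0.62 ± 0.110 at day 14 (adjusted p = 0.00155) and 0.64 ± 0.110 at day 28 (adjusted p = 0.00123), and it was the sterol gene called higher at day 14 against day 2 (0.47 ± 0.110, adjusted p = 0.00835).

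Cyp51, the demethylase that acts on lanosterol, showed the largest rise of the sterol branch. Cyp51 read 7.08, 6.96, 7.06 and 6.95 on the intact arrays and 7.98, 8.07, 8.38 and 8.05 at day 2, and 7.81, 7.61, 7.68 and 7.94 at day 14 and 7.97, 7.81, 7.68 and 8.03 at day 28. The intact arrays were close together and every MIA array lay above them. Cyp51 was higher by 2.15-fold at day 2 (1.11 ± 0.104, adjusted p = 2.67e-06), 1.68-fold at day 14 (0.75 ± 0.104, adjusted p = 0.000269) and 1.81-fold at day 28 (0.86 ± 0.104, adjusted p = 6.85e-05). It was the sterol gene called lower at day 14 than at day 2 (-0.36 ± 0.104, adjusted p = 0.0294), a call that was lost without day 2 array 2 or 3 or day 14 array 2 or 3. No sterol gene was called between days 14 and 28 by limma (at an unadjusted p under 0.05, 3 were higher) or by the unequal-variance test.

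Msmo1, the methylsterol oxidase that acts after Cyp51, read 8.28, 8.36, 8.31 and 8.19 on the intact arrays and 8.89, 9.01, 9.11 and 9.04 at day 2, and 8.82, 8.57, 8.69 and 8.90 at day 14 and 9.03, 8.79, 8.45 and 8.80 at day 28. All MIA arrays were above intact, and the mean was highest at day 2. Msmo1 was higher by 1.65-fold at day 2 (0.73 ± 0.109, adjusted p = 0.000151), 1.37-fold at day 14 (adjusted p = 0.0103) and 1.39-fold at day 28 (adjusted p = 0.00789). Nsdhl, the dehydrogenase that removes the carboxyl group left by Msmo1, was higher by 0.40 ± 0.0970, 0.42 ± 0.0970 and 0.35 ± 0.0970 on the 3 days (adjusted p = 0.00604, 0.00922 and 0.0232), and its day 28 call was lost without intact array 1 or day 28 array 1 or 4 (adjusted p from 0.0627 to 0.0808).

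Sc5d and Dhcr7, at the end of the pathway, were not called higher on any day. Ebp, a sterol isomerase described below, was called higher at days 2 and 14. Sc5d, the desaturase before the last reduction, was not called on any day, with differences of -0.14, -0.06 and 0.03 (adjusted p = 0.324, 0.717 and 0.909). Dhcr7, the reductase that follows it and yields cholesterol, read 7.53, 7.84, 7.71 and 7.76 on the intact arrays and 7.41, 7.26, 7.35 and 7.31 at day 2, and 7.44, 7.26, 7.28 and 7.19 at day 14 and 7.60, 7.29, 7.32 and 7.48 at day 28. Days 2 and 14 lay wholly below intact and day 28 overlapped with it. Dhcr7 was called lower on all 3 days, with a difference of -0.38 ± 0.0895 at day 2 (adjusted p = 0.00558), -0.42 ± 0.0895 at day 14 (adjusted p = 0.00538) and -0.29 ± 0.0895 at day 28 (adjusted p = 0.0417). The day 28 call was lost in 11 of 16 fits that left out 1 array (adjusted p from 0.0501 to 0.118).

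**Figure D3:**
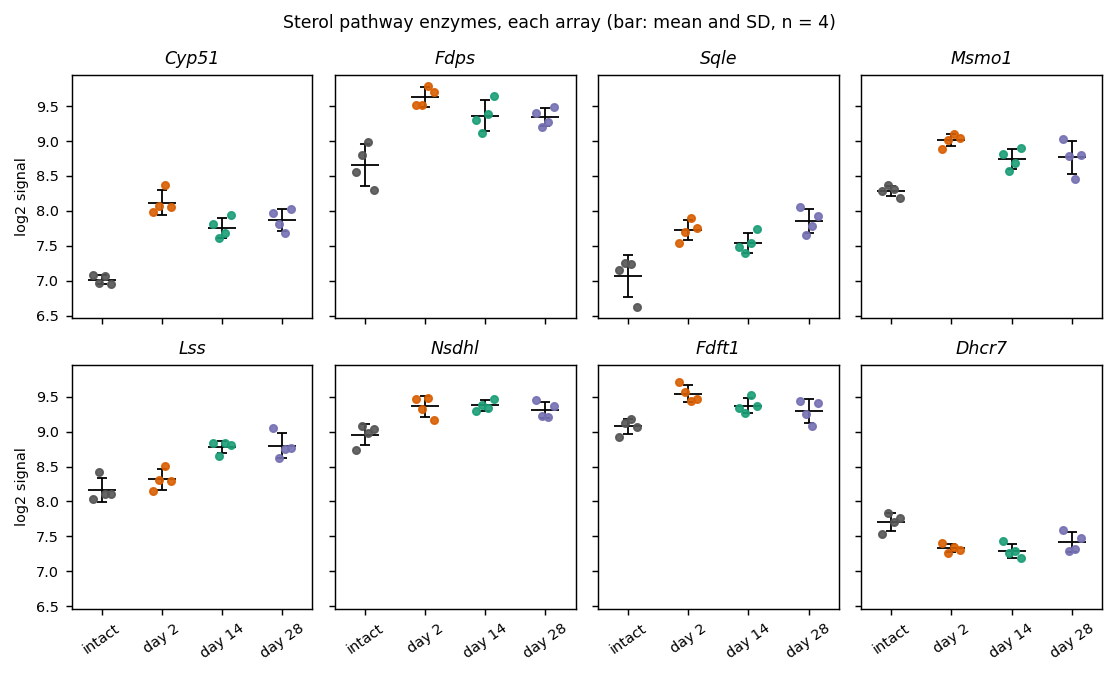
Log2 signal (vertical axis) of 8 enzymes of the sterol pathway on each array (points), with mean and SD (bars, n = 4), for intact and days 2, 14 and 28 after MIA (horizontal axis). The panels share 1 axis that does not start at 0, and Cyp51, Fdps, Sqle, Msmo1 and Nsdhl lie above intact on every MIA array while the mean of Dhcr7 lies below intact on each MIA day.

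In the plot of the sterol enzymes by array, the means of Cyp51, Fdps, Msmo1 and Fdft1 were highest at day 2. Lss was high only at days 14 and 28. Against day 2, limma called Cyp51 lower at day 14 but not Fdps, Msmo1 or Fdft1 (adjusted p = 0.27, 0.13 and 0.301). Of the 16 sterol genes, 11 had their lowest mean in intact, 6 their highest mean at day 2 and 8 their highest mean at day 28. As for the fatty acid genes, uncalled differences are included and no such count was made over all gene symbols.

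The promoters of the 3 sterol genes with the largest differences and a promoter in RefSeq are shown for comparison with those of the fatty acid genes. They lie, in the same build and window, at chr4:30991443-30991742 (plus strand) for Cyp51, chr2:176804767-176805066 (minus strand) for Fdps and chr16:29746863-29747162 (plus strand) for Msmo1. Capitals again mark CCAAT or its reverse complement ATTGG.
Cyp51: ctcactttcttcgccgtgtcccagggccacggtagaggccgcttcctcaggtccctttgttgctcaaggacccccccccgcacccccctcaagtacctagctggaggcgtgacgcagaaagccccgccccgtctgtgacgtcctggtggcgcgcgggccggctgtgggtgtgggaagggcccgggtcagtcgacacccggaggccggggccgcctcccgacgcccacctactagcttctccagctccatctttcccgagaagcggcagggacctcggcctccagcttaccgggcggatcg
Fdps: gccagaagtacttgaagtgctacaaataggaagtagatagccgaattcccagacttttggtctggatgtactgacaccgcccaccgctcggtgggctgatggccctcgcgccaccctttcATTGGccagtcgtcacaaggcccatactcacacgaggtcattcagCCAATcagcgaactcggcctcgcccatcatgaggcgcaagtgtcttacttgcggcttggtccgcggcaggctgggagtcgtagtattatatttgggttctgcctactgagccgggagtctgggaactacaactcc
Msmo1: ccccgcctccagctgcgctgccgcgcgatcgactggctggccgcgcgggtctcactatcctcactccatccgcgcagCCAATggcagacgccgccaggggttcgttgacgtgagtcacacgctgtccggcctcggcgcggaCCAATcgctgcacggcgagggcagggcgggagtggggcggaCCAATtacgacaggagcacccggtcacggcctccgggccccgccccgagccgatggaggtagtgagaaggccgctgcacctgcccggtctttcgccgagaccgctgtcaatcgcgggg

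Msmo1 held 3 CCAAT boxes, Fdps 2 and Cyp51 none. CCAAT occurred in 12 of the 15 sterol genes with a promoter, among them Hmgcs1 and Mvk, whose levels were not measured, against 37.5% of all promoters, and CACGTG in 3 (Insig1, Sc5d and Scap), against 6.42%. TCACNCCAC was found in none of the 15 and in 1.12% of all promoters. A pattern this rare would seldom be seen in so few promoters, so its absence does not show that they lack sterol regulatory elements. In each set of 3 promoters, 1 lacked CCAAT and the others held it.

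The mean of each branch on each array, relative to the intact mean, put the contrast on 1 scale. The fatty acid and triacylglycerol mean ran from -0.22 to 0.19 on the intact arrays, from -0.69 to -0.36 at day 2, from -0.86 to -0.52 at day 14 and from -1.14 to -1.07 at day 28. The sterol mean ran from -0.08 to 0.10 on the intact arrays, from 0.24 to 0.34 at day 2, from 0.15 to 0.30 at day 14 and from 0.24 to 0.41 at day 28. In both branches no MIA array overlapped with intact, and among the MIA days only day 28 of the fatty acid branch stood apart from the others. The fatty acid mean minus the sterol mean averaged -0.81 at day 2, -0.89 at day 14 and -1.41 at day 28. These means are given as a description, without a test.

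Adipocyte markers moved with the fatty acid branch. Of the 18 markers, none of which is a gene of these branches, 16 were called lower at day 2, 17 at day 14 and 18 at day 28, with median differences of -1.08, -1.60 and -2.61. The shares of all gene symbols called lower on these days were 15.2%, 8.74% and 9.57%. Adipoq, the adipocyte hormone adiponectin, averaged 11.65 on the intact arrays and 10.78, 9.79 and 7.44 on days 2, 14 and 28, a difference of -4.21 at day 28 (adjusted p = 3.4e-07). Of 5 brown adipocyte markers measured, 2 were called lower at day 2, and 1 lower and 1 higher on each of days 14 and 28, and Ucp1, which defines brown fat, averaged 5.38 on the intact arrays and was not called (adjusted p = 0.926, 0.236 and 0.814).

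**Figure D4:**
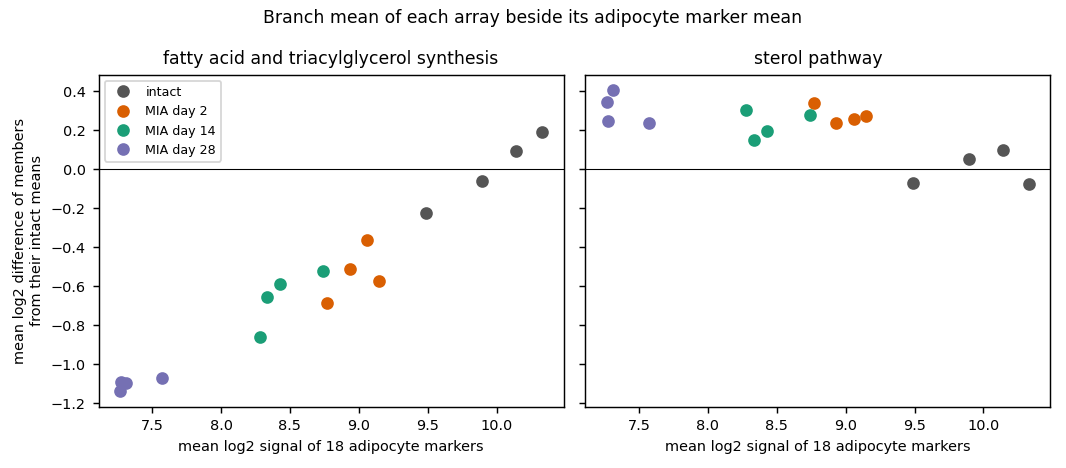
Mean of the 17 fatty acid and triacylglycerol genes (left) and of the 16 sterol genes (right) on each of the 16 arrays (points, coloured by group), as log2 difference from the intact means (vertical axis), against the mean log2 signal of 18 adipocyte markers on the same array (horizontal axis). The fatty acid mean is lowest on the day 28 arrays (-1.14 to -1.07), where the adipocyte mean is also lowest (7.26 to 7.57), and the sterol mean lies above the intact arrays on all 12 MIA arrays.

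The plot of branch means against adipocyte markers shows the fatty acid mean going down with the markers from intact to day 28. Its arrays at days 2 and 14 overlapped. The median difference of the branch did not step down (-0.41, -0.20 and -0.39 at days 2, 14 and 28). The sterol branch was already high at day 2, and the 3 MIA days overlapped with each other while the markers went on falling.

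With the adipocyte marker mean as a covariate in limma, no fatty acid gene was called lower on any day, and none was lower at an unadjusted p under 0.05. The differences of Thrsp became -0.42, -0.26 and -1.16, and those of Scd became -0.42, -0.07 and 0.06. Of the sterol genes, only Cyp51 at day 2 was then called higher (0.82, adjusted p = 0.0335), although 6 were higher at an unadjusted p under 0.05 at day 2, 2 at day 14 and 1 at day 28. The median SE of the 33 genes rose at the same time from 0.109 to 0.199, 0.282 and 0.464 on the 3 days, and the calls over all gene symbols went to 676 higher and 318 lower at day 2 and to 0 at days 14 and 28 (at an unadjusted p under 0.05, 803 were higher and 352 lower at day 14, and 487 and 226 at day 28). Because the marker mean does not overlap between groups, adipocyte marker level and the day after MIA cannot be told apart in these arrays.

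Without intact array 3 and day 14 array 3, the arrays highest in muscle markers, 7 of the 17 fatty acid genes were called lower at day 2, 7 at day 14 and 8 at day 28, and 7, 5 and 6 of the 16 sterol genes were called higher. Calls over all gene symbols were not counted in that fit. The calls lost were those of Acsl1 and Agpat2 at day 2 (adjusted p = 0.0588 and 0.0693), Sqle and Scap at day 14 (0.0596 and 0.187) and Nsdhl, Scap and Dhcr7 at day 28 (0.0531, 0.0679 and 0.0912). With the marrow marker mean as a covariate, 2 sterol genes were called higher at day 14 and 1 at day 28, while higher calls over all gene symbols went from 2216 to 922 at day 14 and from 1994 to 550 at day 28 and the median SE of the 33 genes from 0.109 to 0.123 and 0.139.

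Several calls made on all 3 days did not hold under these settings. With the marrow covariate, Fdps, Sqle, Msmo1 and Nsdhl lost their calls at day 14 (adjusted p from 0.068 to 0.293), and these 4 and Dhcr7 lost them at day 28 (from 0.0935 to 0.313). Of the fatty acid genes, Agpat2 at day 2 was lost (0.0578). Under the unequal-variance test, Sqle and Nsdhl were lost at day 2 (0.0719 and 0.0569), and Fdps, Sqle, Msmo1, Nsdhl and Dhcr7 at day 14 (from 0.0598 to 0.209) and day 28 (from 0.0764 to 0.155). The fatty acid genes lost under that test were Acsl1, Agpat2 and Dgat2 at day 2 (from 0.0562 to 0.216) and Scd, Agpat2, Lpin1 and Srebf1 at day 14 (from 0.0549 to 0.118). Over all gene symbols the unequal-variance test called 2637 higher at day 2, 637 at day 14 and 992 at day 28, and 1689, 338 and 686 lower. Cyp51 kept its 3 calls under both settings. Among genes called on fewer days, Srebf2 at day 28 and Scap at days 14 and 28 were lost under both settings. Lss was lost at day 14 under the unequal-variance test and at day 28 with the marrow covariate. Idi1 and Fads2 were lost at day 2 under the unequal-variance test.

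Other genes of fatty acid and triacylglycerol synthesis, 30 in number, did not share a direction. The numbers called higher were 9, 5 and 4 on days 2, 14 and 28, the numbers called lower 3, 4 and 4, and the medians 0.02, 0.04 and 0.10. Over all gene symbols, 19.8%, 12.2% and 11% were called higher and 15.2%, 8.74% and 9.57% lower on these days. Elovl7, an elongase of saturated long-chain acyl-CoA, averaged 9.06 on the intact arrays and 6.24 at day 28 and was called lower on all days (-2.03, -2.42 and -2.82, adjusted p = 7.74e-06, 8.74e-06 and 1.1e-06). Agpat3, an acyltransferase that makes phosphatidic acid, fell by 0.36, 0.55 and 0.79 (adjusted p = 0.0182, 0.00241 and 0.000139), and Pnpla3, a lipid droplet acyl hydrolase, by 0.69, 0.62 and 0.75 (adjusted p = 0.000725, 0.00383 and 9e-04). Acsl4, the acyl-CoA synthetase that prefers arachidonate, went the other way from Acsl1 at day 2 (0.82, adjusted p = 8.26e-06).

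Of 11 other genes of sterol synthesis and uptake, 4 were called higher and 1 lower at day 2, 3 higher at day 14, and at day 28 Hsd17b7 was higher and Lbr lower. Among all gene symbols, 19.8%, 12.2% and 11% were called higher on these days, and 15.2%, 8.74% and 9.57% lower. Hsd17b7, a ketosteroid reductase that acts after Nsdhl, was higher on all 3 days (0.80, 0.51 and 0.44, adjusted p = 0.000595, 0.0242 and 0.0486). Acat2, the cytosolic thiolase at the start of the pathway, was higher at days 2 and 14 (0.47 and 0.33, adjusted p = 0.00426 and 0.0475). Ebp, a sterol isomerase, was likewise higher at those days (0.32 and 0.34, adjusted p = 0.0149 and 0.0169). Lbr, a sterol reductase that is also the lamin B receptor, was lower at day 28 (-0.72, adjusted p = 0.0307).

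Genes of sterol efflux and storage, 10 in all, were called higher in 7 cases and lower in 1 at day 2, against 2 and 1 at day 14 and 3 and 3 at day 28. The shares over all gene symbols were 19.8%, 12.2% and 11% higher and 15.2%, 8.74% and 9.57% lower on these days. Soat1, which esterifies cholesterol for storage, was higher on all 3 days (1.29, 0.69 and 0.68, adjusted p = 4.87e-08, 3.81e-05 and 2.94e-05), and so was Ch25h, a cholesterol hydroxylase induced by interferon (1.26, 1.52 and 1.32, adjusted p = 0.000397, 0.000258 and 0.00066). The efflux pump Abca1 was higher at day 2 (0.71, adjusted p = 3.07e-05) and lower at day 28 (-0.35, adjusted p = 0.0144), as was Abcg1 (0.53 and -0.57, adjusted p = 0.000259 and 0.000355). At day 2 these genes moved on the same arrays as the macrophage and monocyte markers, and the part of the markers in that rise was not tested.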

How the data were processed

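Total RNA of rat knee tissue was hybridised to Affymetrix Rat Gene 2.0 ST arrays (16 arrays, 4 groups of 4). The authors deposited log2 signals, which the submitters' processing notes describe as RMA in oligo 1.36.1, and the study's methods as background-subtracted and quantile-normalised values from GeneChip Operating Software. The array's genome build is not given in the sources used here. Array medians lay between 6.57 and 6.69. Precision is limited by how few arrays there are, and p-values measure the spread between arrays. Each array is a pool of 2 rats by the study's methods and an individual rat by the labels.

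Of 36685 probe sets, 18511 carried 1 gene symbol, 575 several and 17599 none. For each of 18166 symbols the probe set with the highest mean was used. Differences were fitted with limma 3.58.1 (lmFit and eBayes, R 4.3.3, 1 mean per group, all 16 arrays) and adjusted by Benjamini-Hochberg over all probe sets. The scripts were tested on simulated data. Motifs were searched in RefSeq promoters (29 of 37 genes matched).

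Members and gene lists were chosen with earlier results of these data known. Per array values were given for genes called with over 2-fold difference, otherwise for the gene of each role with the largest difference, and for partners in a step. Replicate numbers are names only. Alternatives were cyclic loess, median centring, a filter on dim probe sets, the mean of a gene's probe sets, an intensity trend with robust prior, a replicate block, an unequal-variance test, marker covariates (muscle, marrow, adipocyte), each array left out and, chosen after seeing the data, the muscle-high arrays left out.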

Additional observations from a re-analysis of the deposited data

Results flagged for a closer look

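Single arrays stood apart from the other 3 of their group in 8 of the 132 gene and group combinations examined by Dixon's criterion, and chance flags about 1 in 20. The high values were Me1 (9.45, next 8.83) and Acacb (7.22, next 6.32) on day 14 array 3, Insig1 on intact array 4 (9.30, next 8.98) and Insig2 on day 14 array 2 (9.02, next 8.80). The low values were Scd on day 28 array 4 (6.92, next 7.72), Acsl1 on day 14 array 4 (8.34, next 9.03), Insig2 on day 28 array 4 (9.10, next 9.21) and Sqle on intact array 4 (6.62, next 7.15).

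Changes between consecutive days after MIA, which are differences between 2 effects against the same intact arrays, were called by limma for 7 genes. From day 2 to day 14 the log2 differences were 0.75 for Me1 (adjusted p = 0.00123), 0.56 for Fads2 (0.0217) and 0.47 for Lss (0.00835), against -0.76 for Acsl1 (0.0106), -0.62 for Agpat2 (0.00819) and -0.36 for Cyp51 (0.0294). From day 14 to day 28 they were -1.08 for Acsl1 (adjusted p = 0.0165) and -2.28 for Thrsp (0.00121).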

How the results depend on the processing

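Calls rest on 4 arrays per group, and the genes near the threshold changed sides under several settings. The count of fatty acid genes lower at days 2, 14 and 28 (9, 7 and 8) became 5 and 3 at days 2 and 14 under the unequal-variance test and 0 on each day with the adipocyte covariate, which moved the branch medians to -0.021, 0.073 and 0.18 and the medians of the steps between days to 0.091 and 0.16. The count of sterol genes higher (7, 7 and 8) became 4, 1 and 2 under the unequal-variance test, 1, 0 and 0 with the adipocyte covariate, and 2 and 1 at days 14 and 28 with the marrow covariate. The sterol genes called lower became 0 at day 2 with the adipocyte covariate and 0 at day 14 with it and under the unequal-variance test, 2 at day 14 with cyclic loess (where the sterol median at day 14 was 0.19), and 0 at day 28 with median centring, the replicate block, the unequal-variance test, each of the 3 covariates and without the muscle-high arrays. With the adipocyte covariate the difference turned sign for Acsl1 at day 2 (0.28), Agpat2 at days 2, 14 and 28 (0.31, 0.077 and 0.43), Sqle at days 14 and 28 (-0.15 and -0.28) and, at day 28, Scd (0.064), Dgat2 (0.11), Srebf1 (0.36) and Dhcr7 (0.36), none of them called.

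Between days 2 and 14, the 2 fatty acid genes higher became 0 under the unequal-variance test and 1 with the muscle or adipocyte covariate, and the 2 lower became 0 under the unequal-variance test or the adipocyte covariate and 1 with the marrow covariate. The 1 sterol gene higher became 3 with cyclic loess or without dim probe sets, 2 with median centring, the mean of a gene's probe sets or the intensity trend, and 0 with the adipocyte covariate, and the 1 lower became 0 with median centring, the replicate block, the unequal-variance test, the muscle covariate and without the muscle-high arrays. Between days 14 and 28, the 2 fatty acid genes lower became 0 under the unequal-variance test or the adipocyte covariate and 1 with the muscle covariate or without the muscle-high arrays, and 1 sterol gene was higher with median centring, without dim probe sets, with the mean of a gene's probe sets and with the intensity trend. With 1 array left out, fatty acid genes higher from day 2 to day 14 numbered 1 to 2, fatty acid genes lower from day 14 to day 28 1 to 3, sterol genes higher from day 2 to day 14 1 to 2 and lower 0 to 1, sterol genes lower at day 28 0 to 1, and the sterol median at day 28 lay between 0.22 and 0.37. The cause of these shifts was not tested.

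Same-numbered arrays did not pair, since their deviations correlated between -0.36 and 0.458 with 7 of 24 pairs over 0.1, and 4 of 16 arrays correlated best with their own number. The replicate block gave 8, 7 and 8 fatty acid genes lower and 7, 5 and 7 sterol genes higher.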

Other observations

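Synovial and fibroblast markers, 15 in number, were called lower in 8 cases and higher in 2 at day 2, higher in 6 and lower in 1 at day 14, and higher in 7 and lower in 1 at day 28. All gene symbols were called higher in 19.8%, 12.2% and 11% and lower in 15.2%, 8.74% and 9.57% on these days. The marker mean lay between 11.50 and 11.58 on the intact arrays, between 11.08 and 11.40 at day 2 and between 11.82 and 11.95 at day 28.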
